A study of Mus musculus with 9 samples.

Results

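Collagens, laminins, nidogens and integrins build the extracellular matrix and attach cells to it. Their genes were taken from mouse retinal organoids by name: every gene spot named Col with a chain number, Lama, Lamb or Lamc with a number, Nid1 or Nid2, Itga or Itgb. That gave 83 gene names on 190 probes. A name was represented by its brightest probe among those that 3 or more of the 9 arrays read well above background, and 65 of the 83 names had one, of 23428 genes measured in all. Among the 65 were 16 basement membrane chains, 11 fibrillar collagen chains, 7 fibril-associated collagens, 5 beaded filament (collagen VI) chains, 2 short-chain collagens, 4 transmembrane collagens, 1 other collagen, 12 integrin alpha and 7 integrin beta subunits. The 18 others did not pass: Col4a3, Col4a4, Col15a1, Lama3, Lama4 and Lamb3 of the basement membrane, Col6a6, Col10a1, Col12a1, Col14a1 and Col28a1 of the other collagens, and Itga2, Itga2b, Itga8, Itgad, Itgae, Itgax and Itgb6.

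The organoids, floating cultures that form retinal tissue, were made by quick reaggregation of mouse pluripotent stem cells. The study compared 3 lines at differentiation days 10, 16 and 23 (DD10, DD16 and DD23) with 1 sample and 1 array each: wild type (WT), a knockout of Bhlhb4, today called Bhlhe23 (B4KO), and an Islet-1 knockout (Isl1KO). Both knockouts were engineered to carry fewer bipolar cells, the interneurons between photoreceptors and the inner retina. Each sample was total RNA of 5 pooled organoids, how many clones stand behind a line is not stated in the sources used here, and no line and day combination has a replicate.

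As background, laminin is a trimer of an alpha, a beta and a gamma chain that assembles on the cell surface, collagen IV forms the second network of the basement membrane, and nidogens bridge both. Fibrillar collagens form the tensile fibrils of mesenchyme, cartilage, sclera and vitreous, and fibril-associated collagens decorate those fibrils. Integrins are alpha-beta pairs that bind these proteins, and in the developing eye the retinal neuroepithelium rests on a basement membrane that becomes the inner limiting membrane.

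The collagen IV genes lie head to head in pairs, and the RefSeq windows of the 250 bases upstream of each start are given for the measured pair whose windows do not reach the partner's start, because its members ran closely together over the arrays (coordinates GRCm38.p6). Capitals mark the GC box GGGCGG and the CCAAT box, on either strand.

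Col4a5: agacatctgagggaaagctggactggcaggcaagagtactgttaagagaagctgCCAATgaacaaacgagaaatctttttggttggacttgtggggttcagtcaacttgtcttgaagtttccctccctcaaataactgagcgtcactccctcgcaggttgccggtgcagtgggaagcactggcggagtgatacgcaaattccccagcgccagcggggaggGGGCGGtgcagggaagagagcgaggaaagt
Col4a6: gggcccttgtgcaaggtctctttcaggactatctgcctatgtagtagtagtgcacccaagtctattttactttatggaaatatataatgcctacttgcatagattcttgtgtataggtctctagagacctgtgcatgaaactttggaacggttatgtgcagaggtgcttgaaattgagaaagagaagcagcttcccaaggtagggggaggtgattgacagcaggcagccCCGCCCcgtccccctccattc

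The Col4a5 window is chrX:141475169-141475418 (+ strand) and the Col4a6 window chrX:141474077-141474326 (- strand), and the starts are 1343 bases apart. Each holds 1 GC box, 30 bases before the Col4a5 start and 21 bases before the Col4a6 start, and Col4a5 also holds 1 CCAAT box. Starts of Col4a1 and Col4a2 on chromosome 8 are 21 bases apart, so each upstream window lies in the partner gene and is not printed; it holds 0 GC boxes for Col4a1 and 2 for Col4a2, with 1 CCAAT box each. Of 32851 RefSeq windows of this length, 32.7% hold GGGCGG and 33.8% hold CCAAT on either strand, so these matches are a description only. Over the 9 arrays, Pearson's r was 0.907 between Col4a5 and Col4a6 and 0.927 between Col4a1 and Col4a2; the points share the arrays, so no p is given.

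Values below are log2 of the spot intensity over the 75th percentile of its array, called the level; 3 values given for a day are in the order WT, B4KO, Isl1KO, and 3 values given for a line in the order DD10, DD16, DD23. Standard errors and adjusted p-values are from limma over all genes with line and day as additive terms, 3 arrays a side, so the spread is the departure from additivity and not that of repeat cultures. A gene is said to have risen or fallen, or to be called, where the Benjamini-Hochberg adjusted p was under 0.05. "At least" marks a fold against a group in which the probe was well above background on no array, taken against the detection limit of those arrays. Between 57.3% and 67.8% of gene spots were well above background per array and 0 were saturated. The WT and Isl1KO arrays share 1 slide and the B4KO arrays are the whole of another, so B4KO and slide cannot be told apart, nor can day and array column. All 8 retina markers (among them Rax and Crx) were measured, with a summed level (linear, 1 being the 75th percentile) of 103 to 332. Of 12 mesenchyme markers 5 were measured, summing to 0.590 to 1.37, and Twist1, Foxc1, Foxc2, Tbx18, Osr1, Tcf21 and Meox1 did not pass. Cartilage had 4 of 8 names (Matn3, Lect1, Sox5 and Sox6, without Acan, Matn1 or Comp). The remaining name, Cnmd, is a newer name of Lect1 and no further gene. Endothelium had 3 of 7 (no Cdh5, Tek, Emcn or Tie1) and blood 3 of 6 (no Aif1, Spi1 or Tyrobp). The Isl1 level was -0.60, 1.45 and -0.05 at DD10, DD16 and DD23 in WT and -1.24, -0.44 and -1.63 in Isl1KO, and Bhlhe23 was well above background on 6 arrays, with levels of -3.20, -2.82 and -4.55 in WT and -3.41, -4.88 and -6.64 in B4KO. Where the deletions lie relative to these probes is not known here, so the values do not check the knockouts. Because organoids are mixtures, fewer cells of a type and less RNA per cell cannot be told apart.

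Matrix genes moved in both directions over time, and some chains of one complex moved apart. From DD10 to DD16, 11 of the 65 rose and 15 fell, against 21.9% and 18.9% of all genes. From DD16 to DD23, 18 rose and 17 fell, against 19.3% and 22%. Over the whole span 17 rose and 26 fell, against 31.5% and 29.2%, and 22 passed in neither direction (66.2% passed, where 60.7% of all genes did). In either direction 40% of the 65 passed in the first step, where 40.8% of all genes did, and 53.8% in the second, where 41.3% did. The median difference of the 65 was -0.14 and 0.01, beside 0.03 and 0.01 for all genes.

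By pattern, 6 genes rose at both steps (Col6a1, Col16a1, Col17a1, Col20a1, Itga11, Itgb5) and 5 fell at both (Col5a1, Col11a1, Col24a1, Lamc1, Itga5), though Col24a1 was well above background on no array of DD16 or DD23, so its second call lies between dim values. The Col6a5 rise over the span likewise lies between days that were both below background. Col6a5 passed the filter only through DD16, and Col24a1 and Col5a2 only through DD10. Their calls against those days stay in the counts, though the filter set the direction. Another 4 fell and then rose (Col6a4, Col7a1, Col8a1, Itga1) and 3 rose and then fell (Col6a5, Itga4, Itga6). A further 9 fell at the second step alone, 8 rose at the second step alone, 6 fell and 2 rose at the first step alone, and 22 passed at neither. Passing in 1 step and not the other was not tested as a difference. The share of all genes with each pattern was not counted, so the pattern counts only describe these genes. Of the calls, 13 of 26, 20 of 35 and 25 of 43 (DD16 against DD10, DD23 against DD16, DD23 against DD10) held under every alternative other than probes read singly. The first-step falls went from 15 to 8 without WT DD16, Isl1KO DD10 or Isl1KO DD16, and the second-step rises from 18 to 10 without Isl1KO DD16.

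**Figure D1:**
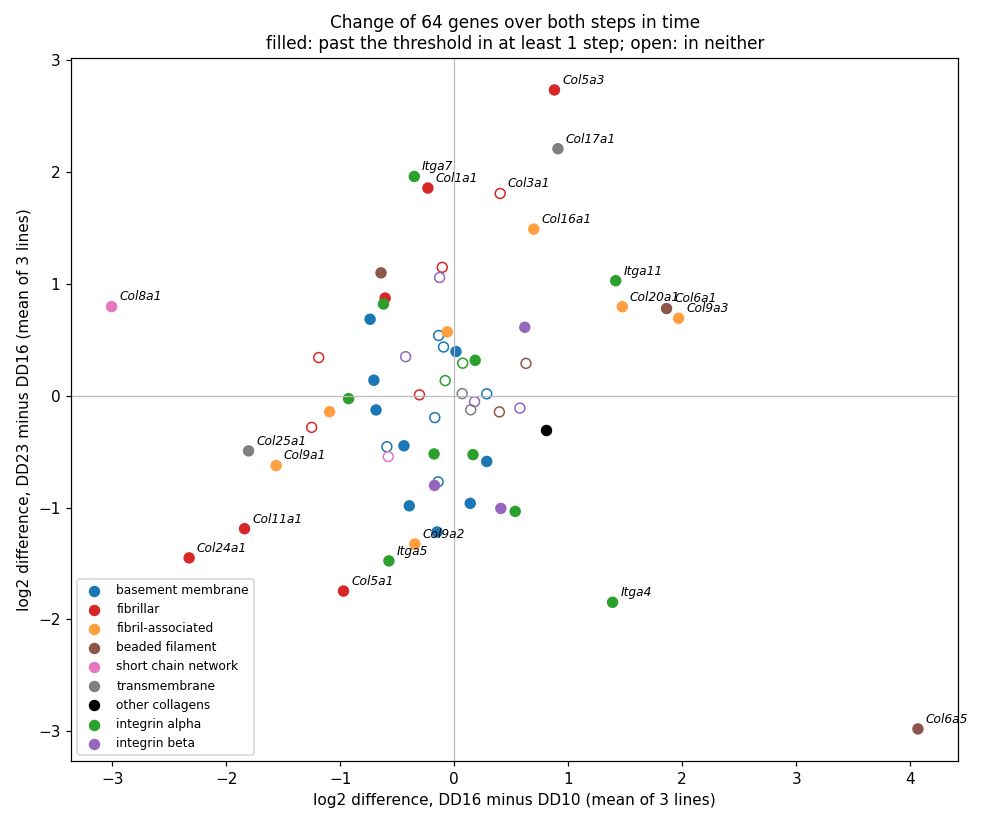
Each point is 1 of 64 of the 65 genes; the x axis is the log2 difference from DD10 to DD16, the y axis that from DD16 to DD23 (both averaged over 3 lines), and colour is the role. Col6a5 lies lower right (4.07, -2.98), Col8a1 far left (-3.01, 0.80), and the fibrillar chains split between Col11a1, Col5a1 and Col24a1 (lower left) and Col5a3 and Col1a1 (above 0 on the y axis); Col6a5 at DD10 and DD23 and Col24a1 at DD16 and DD23 were not well above background, so their positions are not fold changes.

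Most basement membrane genes that changed went down. Of the 16 chains, 4 fell and 0 rose from DD10 to DD16, 5 fell and 3 rose from DD16 to DD23, and 9 fell and 2 rose over the span, with medians of -0.16, -0.16 and -0.47. The shares that passed in either direction were 25%, 50% and 68.8%, beside 40.8%, 41.3% and 60.7% of all genes. The laminin chains, 8 in number, had 6 falls over the span, and collagen IV had 2 falls and 1 rise among 4. Col18a1, whose collagen XVIII core carries heparan sulfate and releases endostatin, had the largest fall of the 16 over the span, followed by Lamb2. Among the rises over the span was that of Col4a5.

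Col18a1 levels were 3.07, 3.52 and 3.50 at DD10, 2.79, 3.16 and 2.96 at DD16 and 1.62, 2.51 and 1.83 at DD23. The DD23 arrays were the lowest in every line and did not overlap DD16, and the second step was -0.98 (SE 0.14, adjusted p = 0.00381), 1.98-fold lower. The span from DD10 to DD23 was -1.38 (SE 0.14, adjusted p = 0.000428).

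In collagen IV, Col4a2 fell and Col4a5 rose in the second step, and the pair partner of each was not called there. Col4a2 levels were -0.00, 0.64 and 1.0 at DD10, 0.42, 0.53 and 1.11 at DD16 and -0.39, -0.34 and -0.10 at DD23: the DD23 arrays lay below all DD16 arrays, and the step was -0.96 (SE 0.15, adjusted p = 0.00513), 1.95-fold lower. Col4a1 levels were -0.32, 0.66 and 0.70 at DD10, -0.01, 0.04 and 0.58 at DD16 and -0.56, -0.43 and -0.70 at DD23; its second step was -0.77 with an adjusted p of 0.0502, and its span -0.91 (SE 0.25, adjusted p = 0.0199). On the X chromosome, Col4a5 levels were 0.11, 0.12 and 0.14 at DD10, 0.10, 0.02 and 0.30 at DD16 and 0.23, 0.68 and 0.69 at DD23, with day groups that overlapped and a second step of 0.39 (SE 0.12, adjusted p = 0.0445). Its partner Col4a6 was not called in any comparison of days (second step 0.43, SE 0.15, adjusted p = 0.0600). The difference between both pairs was not tested. Without B4KO DD10 or DD23 or Isl1KO DD10 or DD23, or with the WT and Isl1KO slide alone the span of Col4a1 (-1.19 to -0.66 over the alternatives, as in the ranges given with other lost calls) lost its call. Calls were also refitted with quantile normalization, the array median in place of the 75th percentile, normexp background correction, no filter on dim probes (no dim filter), the mean of each gene's detected probes, the deposited table, and the slide that holds WT and Isl1KO alone. The Col4a5 step (0.26 to 0.53) lost its call without any array other than WT DD23, or with the array median, no dim filter, the mean of probes, the deposited table or the WT and Isl1KO slide alone. Its span of 0.41 (0.18 to 0.55) lost it without B4KO DD10 or DD23 or Isl1KO DD10 or DD23, or with the array median, no dim filter, the mean of probes or the WT and Isl1KO slide alone.

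Among chains of laminin-111 and laminin-511, Lamb1 fell in the first step, Lama1 in the second and Lamc1 in both. Lama5 was called over the span but in neither step, and differences between steps or chains were not tested. Lamb1, the beta chain of both laminins, had levels of 2.25, 1.82 and 1.98 at DD10, 1.45, 1.56 and 0.99 at DD16 and 1.02, 1.59 and 1.01 at DD23, with DD10 above DD16 in every line and a first step of -0.69 (SE 0.20, adjusted p = 0.0369). Lamc1, the common gamma chain, had levels of 2.11, 1.94 and 1.76 at DD10, 1.5, 1.62 and 1.36 at DD16 and 0.89, 1.37 and 0.88 at DD23 and steps of -0.44 (SE 0.13, adjusted p = 0.0353) and -0.45 (SE 0.13, adjusted p = 0.0329), with DD16 and DD23 overlapping; over the span it fell by 0.89, 1.85-fold. Lamb1 and Lamc1 correlated at Pearson's r of 0.905 over the 9 arrays. Lama5, the laminin-511 alpha chain, had levels of 1.61, 1.39 and 1.31 at DD10, 0.82, 1.19 and 0.52 at DD16 and 0.07, 0.97 and 0.12 at DD23 and a span of -1.05 (SE 0.21, adjusted p = 0.00570). Lama1, the embryonic laminin-111 alpha chain, had levels of 1.31, 1.38 and 1.51 at DD10, 1.59, 1.69 and 1.78 at DD16 and 1.13, 1.22 and 0.95 at DD23, with a second step of -0.59 (SE 0.10, adjusted p = 0.00731) in which the days did not overlap. The span of Lama1 was -0.30 (SE 0.10, adjusted p = 0.0454), but the mean of its probes gave 0.12, and the call was lost without any 1 array, or with quantile normalization, no dim filter, the mean of probes or the WT and Isl1KO slide alone (-0.54 to 0.12). The first step of Lamb1 (-1.03 to -0.55) was lost without WT DD10 or DD16, B4KO DD16 or any 1 Isl1KO array, or with quantile normalization or no dim filter. Its span of -0.81 (-1.10 to -0.63) was lost without WT DD10 or DD23 or Isl1KO DD10. The first Lamc1 step (-0.55 to -0.32) was lost without WT DD10 or DD16, B4KO DD16 or any 1 Isl1KO array, or with quantile normalization, no dim filter, the mean of probes or the WT and Isl1KO slide alone. The second (-0.58 to -0.32) was lost without WT DD16 or DD23, B4KO DD16 or any 1 Isl1KO array, or with no dim filter.

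Lamb2, the beta chain of retinal and synaptic laminins, changed late. Its levels were 0.16, 0.39 and 0.93 at DD10, 0.31, 0.43 and 0.29 at DD16 and -0.93, -0.63 and -1.07 at DD23, and the DD23 arrays stood apart below all others, with a second step of -1.22 (SE 0.20, adjusted p = 0.00607), 2.33-fold lower. Lama2, best known from muscle and Schwann cell basement membranes, had levels of -1.96, -2.17 and -2.59 at DD10, -2.77, -2.70 and -3.37 at DD16 and -2.58, -2.49 and -3.35 at DD23 and fell in the first step (-0.70, SE 0.10, adjusted p = 0.00398). Lamc3 had steps of 0.29 and 0.02 (adjusted p = 0.115 and 0.928), neither past the threshold.

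Nidogens did not pass in any step. Nid1 levels were -1.15, -1.28 and -1.22 at DD10, -1.12, -1.56 and -1.38 at DD16 and -0.28, -0.89 and -1.28 at DD23, with WT DD23 the highest array and a second step of 0.54 (SE 0.18, adjusted p = 0.0591). Nid2 levels were -0.37, -1.10 and -1.13 at DD10, -0.99, -0.86 and -1.26 at DD16 and -1.10, -0.80 and -1.80 at DD23, and its span was -0.37 (SE 0.22, adjusted p = 0.194). Col7a1, which forms anchoring fibrils beneath epithelia, dipped at DD16, with levels of -0.88, -0.81 and -0.36 at DD10, -1.46, -1.32 and -1.49 at DD16 and -0.51, -0.89 and -0.82 at DD23 and steps of -0.74 (SE 0.17, adjusted p = 0.0193) and 0.68 (SE 0.17, adjusted p = 0.0238). All DD16 arrays lay below all DD10 and DD23 arrays. The Col7a1 fall (-0.89 to -0.54) lost its call without WT DD16 or Isl1KO DD10 or DD16, or with the WT and Isl1KO slide alone. The rise (0.51 to 0.81) lost it without WT DD16 or DD23, B4KO DD23 or Isl1KO DD16, or with no dim filter or the WT and Isl1KO slide alone. Pigment epithelium, which also makes basement membrane, had 6 of 7 markers measured, with a summed level of 54.8 to 59.7 at DD10, 17.6 to 25.6 at DD16 and 10 to 16 at DD23; its part in these falls was not tested.

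**Figure D2:**
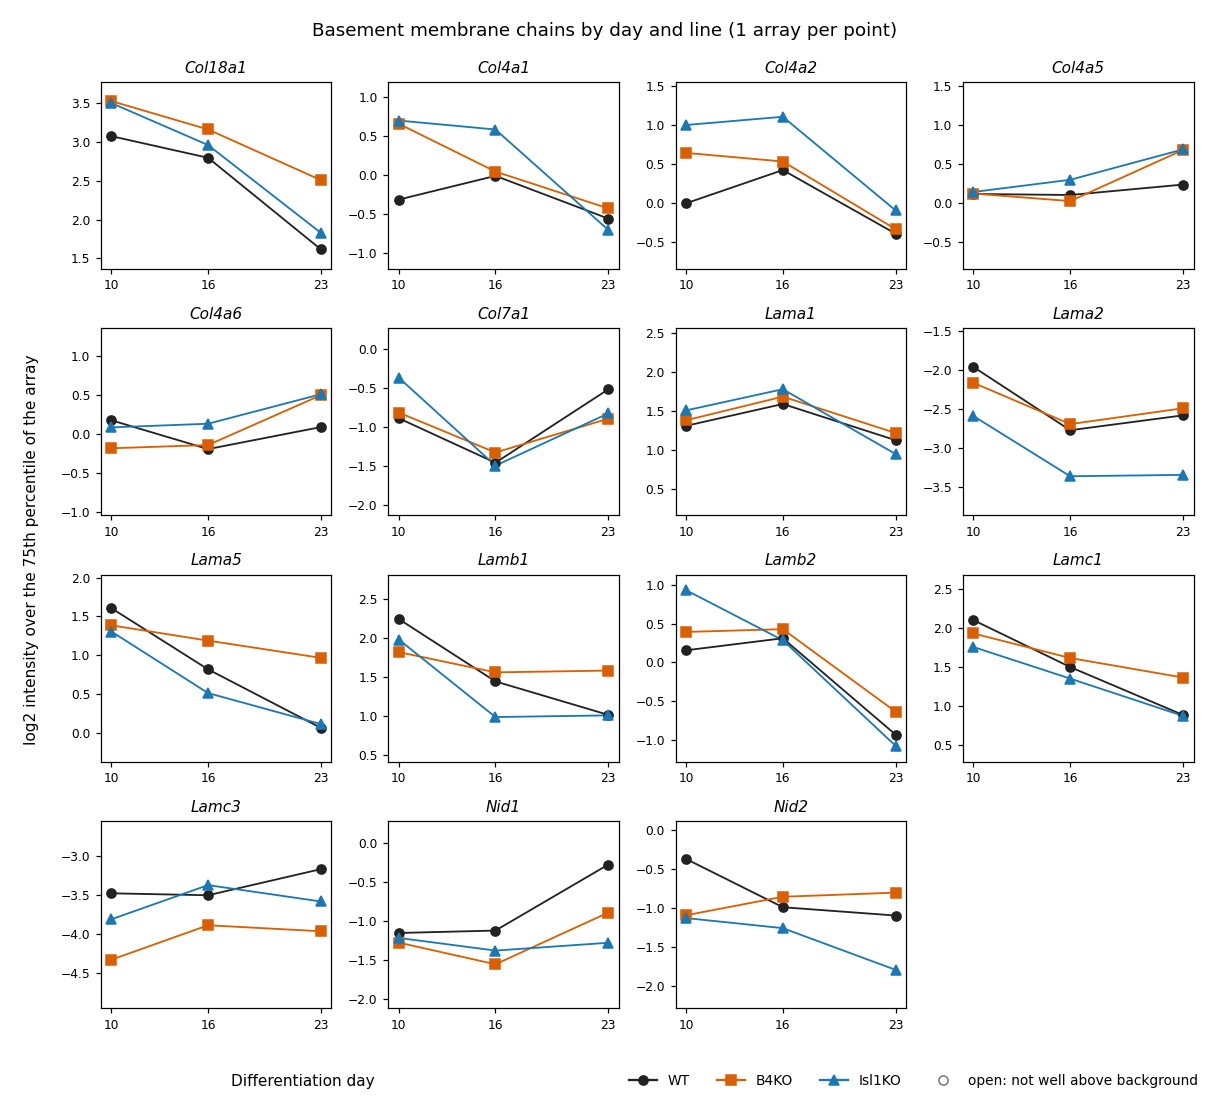
Each panel is 1 of 15 of the 16 basement membrane chains, with day on the x axis and log2 intensity over the array's 75th percentile on the y axis; lines join the arrays of WT, B4KO and Isl1KO, 1 array per point, and open points were not well above background. Col18a1, Lamb2 and Col4a2 drop to DD23 in all 3 lines (Lamb2 to -0.93, -0.63 and -1.07).

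Fibrillar chains split into a group that fell from DD10 on and a group that was high at DD23. Of 11 chains, 3 fell and 0 rose in the first step (Col11a1, Col5a1, Col24a1), and in the second Col11a1 and Col5a1 fell again while Col1a1, Col2a1 and Col5a3 rose; Col24a1 was also called, between days that were both below background. Over the span 4 fell (Col5a2 besides the 3) and 2 rose (Col1a1, Col5a3). For the 3 day comparisons 27.3%, 54.5% and 54.5% of the chains passed in either direction, where 40.8%, 41.3% and 60.7% of all genes did. Falls of Col24a1 and Col5a2 from DD10 had their direction set by the filter on dim probes. The median was -0.61, 0.34 and -0.30 for the 3 day comparisons; the first is -0.26 with dim chains at their bounds, and the last is 0.27 over the 5 chains well above background on all 9 arrays.

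Col11a1, a minor chain that sets fibril diameter in cartilage and vitreous, had levels of 0.99, 0.70 and 0.71 at DD10, -0.91, -0.90 and -1.32 at DD16 and -2.54, -1.77 and -2.38 at DD23. The days did not overlap, and the span was -3.03 (SE 0.20, adjusted p = 0.000106), 8.16-fold lower. Col5a1, the main chain of the collagen V that nucleates collagen I fibrils, had levels of 0.92, 1.21 and 1.41 at DD10, 0.16, 0.45 and 0.02 at DD16 and -1.41, -1.05 and -2.14 at DD23. It fell in every line at both steps, by 0.97 and 1.75, and its span was -2.72 (SE 0.25, adjusted p = 0.000306). Col24a1, a minor chain of bone and eye, was well above background at DD10 only, with DD10 levels of -3.72, -3.22 and -2.87. DD16 was at least 2.61-fold lower and DD23 at least 3.38-fold lower. Col5a2 was likewise above background on the 3 DD10 arrays alone (-3.57, -4.56 and -5.06) and at least 1.55-fold lower at DD23. Col24a1 and Col5a2 passed the filter only through DD10, so it set the direction of these falls and no p is given. The Col5a2 call was lost without any 1 WT array, B4KO DD10 or Isl1KO DD10 or DD23, or with normexp or no dim filter (-2.21 to -0.33 on the fitted scale). The first Col5a1 fall (-1.14 to -0.66) was lost without WT DD16, B4KO DD16 or Isl1KO DD10 or DD16, or with no dim filter or the WT and Isl1KO slide alone.

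Col5a3, a collagen V chain, rose most among fibrillar chains. Its levels were -5.63, -2.67 and -5.08 at DD10, -3.51, -2.92 and -4.31 at DD16 and -0.83, -0.98 and -0.73 at DD23, below background in WT and Isl1KO at DD10, and the DD23 arrays lay above all others; the second step was 2.73 (SE 0.61, adjusted p = 0.0152) and the span 3.61 (SE 0.61, adjusted p = 0.00308). Col1a1, the major chain of collagen I, had levels of -1.81, -2.35 and -1.88 at DD10, -2.34, -2.60 and -1.79 at DD16 and 0.53, -0.79 and -0.91 at DD23. All 3 DD23 arrays were above all earlier ones, with WT highest, and the second step was 1.85 (SE 0.35, adjusted p = 0.00852). Col2a1, the collagen of cartilage, vitreous and embryonic neuroepithelia, had levels of 1.01, 1.42 and 1.65 at DD10, 0.84, 0.86 and 0.55 at DD16 and 1.63, 1.95 and 1.29 at DD23 and a second step of 0.87 (SE 0.21, adjusted p = 0.0201). Without WT DD23, B4KO DD16 or Isl1KO DD16 or DD23 the Col5a3 step (1.94 to 3.41) lost its call. Without WT DD23, B4KO DD16 or DD23 or Isl1KO DD16, or with the WT and Isl1KO slide alone the Col2a1 step (0.75 to 1.06) did. On the WT and Isl1KO slide alone the Col1a1 step was not called, and it ranged from 1.42 to 2.26 over the alternatives.

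Col1a2 and Col3a1, the usual mesenchymal partners of Col1a1, were not called. Col1a2 levels were -0.31, -0.59 and -0.57 at DD10, -0.72, -0.74 and -0.32 at DD16 and 1.62, 0.45 and -0.41 at DD23, with WT and B4KO high at DD23 and Isl1KO level across days (second step 1.15, SE 0.42, adjusted p = 0.0748). Col3a1 levels were -3.27, -7.04 and -5.38 at DD10, -5.84, -5.17 and -3.46 at DD16 and -0.32, -3.59 and -5.15 at DD23, above background on 5 arrays, with a standard error of 1.3. The WT DD23 array was the highest of the 9 for Col3a1 (-0.32, next -3.27), Col1a2 (1.62, next 0.45) and Col1a1 (0.53, next -0.79). Over the 9 arrays Col1a1 correlated with Col1a2 at Pearson's r of 0.926 and with Col3a1 at 0.803. Mesenchyme markers summed to 0.590 on WT DD23, the lowest of the 9 arrays, and to 1.37 on WT DD10, the highest; 7 of the 12 did not pass. Cartilage names (4 of 8) summed to 47.7 to 55.7 at DD10, 46.4 to 70.5 at DD16 and 62.4 to 80.1 at DD23. Meninges and perivascular names (2 of 6, Ptgds and Dcn) summed to 1.66 to 2.78, 4.88 to 7.66 and 7.32 to 12.4, highest in WT and B4KO at DD23. Names within these lists moved apart over the span. Of the 4 cartilage names 2 rose and 1 fell (-1.35 to 1.17), where 31.5% and 29.2% of all genes did. Of the 2 meninges and perivascular names 1 rose (4.15) and 1 fell (-1.21). The part of these marker lists in the fibrillar rises was not tested. Col11a2 (span -0.30, SE 0.22, adjusted p = 0.275) and Col27a1 (span -0.85, SE 0.81, adjusted p = 0.400) were not called between days. The Col27a1 array of B4KO at DD23 stood at -3.09, against -6.09 in WT and -6.80 in Isl1KO, which were not well above background.

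**Figure D3:**
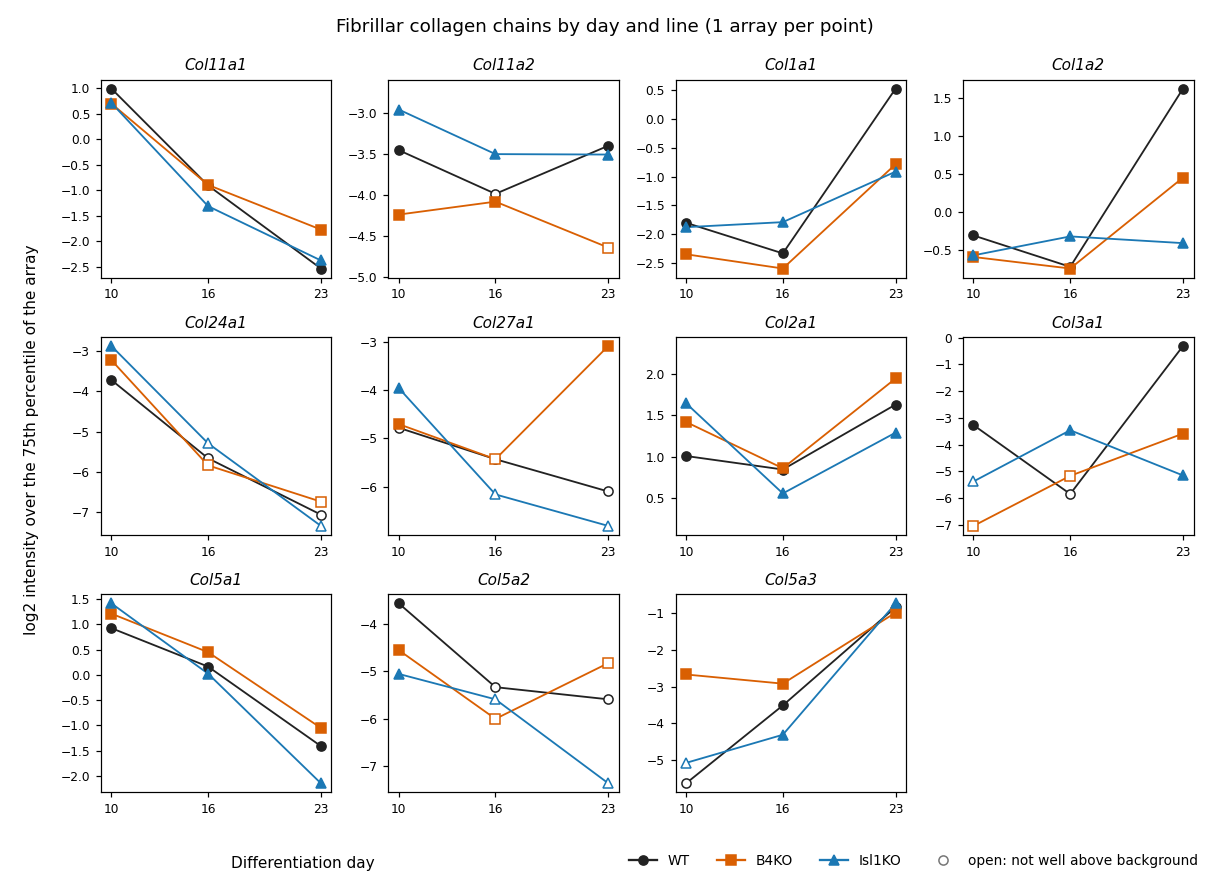
Each panel is 1 of the 11 fibrillar chains, with day on the x axis and log2 intensity over the array's 75th percentile on the y axis; 1 array per point, lines join arrays of a line, and open points were not well above background. Col11a1 and Col5a1 fall in all 3 lines, Col5a3 ends between -0.98 and -0.73 in all 3, and WT DD23 is the highest array for Col1a1, Col1a2 and Col3a1.

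Of 7 fibril-associated chains, which link fibrils to other matrix, 4 rose and 3 fell over the span, where 31.5% and 29.2% of all genes did. Thus 100% passed in either direction, beside 60.7% of all genes. Among them the chains of collagen IX moved apart. Col16a1 levels were -1.29, -1.60 and -1.49 at DD10, -0.51, -0.69 and -1.08 at DD16 and 1.03, 0.87 and 0.28 at DD23, without overlap between days, and the span was 2.18 (SE 0.14, adjusted p = 0.000104), 4.55-fold higher. Col20a1 rose by 2.27 and Col9a3 by 2.66 (SE 0.17 and 0.31). Col9a3 levels were -3.36, -3.07 and -3.31 at DD10, -1.89, -1.25 and -0.69 at DD16 and -0.77, -0.00 and -0.99 at DD23. Its partners in the collagen IX trimer, which coats collagen II fibrils, went the other way: Col9a1 levels were 1.14, 2.37 and 2.63 at DD10, 0.40, 0.36 and 0.70 at DD16 and -0.45, 0.24 and -0.21 at DD23 and Col9a2 levels 1.28, 2.38 and 2.97 at DD10, 1.76, 1.96 and 1.87 at DD16 and 0.29, 0.84 and 0.48 at DD23. Their spans were -2.19 (SE 0.29, adjusted p = 0.00121) and -1.67 (SE 0.31, adjusted p = 0.00455), and the days DD10 and DD23 did not overlap for either. Col22a1, of tissue junctions, fell by 1.09 in the first step; the mean of detected probes gave no call there for Col22a1 or Col9a1. Col19a1 was above background on no DD16 array and at least 1.17-fold higher at DD23 (adjusted p = 0.0153), a call lost without B4KO DD16 or DD23 or Isl1KO DD16 or DD23, or with quantile normalization, normexp or the WT and Isl1KO slide alone (0.17 to 0.71 on the fitted scale). The Col20a1 second step of 0.79 (0.61 to 0.97) was lost without Isl1KO DD16 or DD23. The Col16a1 first step of 0.70 (0.57 to 0.88) was lost without B4KO DD16, or with the WT and Isl1KO slide alone. The Col9a2 second step of -1.33 (-1.5 to -1.08) was lost without WT DD16 or Isl1KO DD23, or with the WT and Isl1KO slide alone.

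Collagen VI, the beaded microfibril around cells, was led by its first chain. Col6a1 levels were -1.57, -1.06 and -0.63 at DD10, 0.47, 0.54 and 1.3 at DD16 and 1.51, 1.31 and 1.83 at DD23, without overlap between days, so the span of 2.64 (SE 0.15, adjusted p = 8.05e-05) was 6.24-fold. Col6a2 and Col6a3, its partner chains, were above background on 6 arrays each, and Col6a3 was not called between days. Col6a2 had a span of 0.92 (SE 0.25, adjusted p = 0.0212), lost without WT DD10 or DD23 or B4KO DD10 or DD23, or with quantile normalization or the WT and Isl1KO slide alone (0.49 to 1.26). Col6a5 was above background on the 3 DD16 arrays alone, at -3.60, -2.29 and -2.69. It was at least 4.03-fold higher there than at DD10 and at least 4.50-fold higher than at DD23. Because it passed the filter of 3 arrays only through DD16, the filter set this direction and no p is given. Twist2, a mesenchyme marker, was also above background at DD16 alone and passed the filter through that day, at least 3.39-fold higher than at DD10. Its relation to Col6a5 was not tested. Col6a4 was above background on 3 arrays and on no DD16 array, so no fold is given; the fitted first step of -0.64 turned to 0.0082 with normexp background correction.

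Col8a1, a short-chain collagen of Descemet's membrane and vessel walls, had the largest fall of the first step, with levels of 3.14, 3.19 and 3.22 at DD10, 0.32, 0.51 and -0.28 at DD16 and 1.12, 1.47 and 0.33 at DD23. DD10 stood clear of the other 6 arrays, and the step of -3.01 (SE 0.22, adjusted p = 0.000608) was 8.03-fold. The later rise of 0.80 had overlapping days and was lost without WT DD16 or DD23, B4KO DD16 or DD23 or Isl1KO DD16, or with the array median, no dim filter or the WT and Isl1KO slide alone (0.63 to 1.01). Col8a2 fell over the span by 1.12 with overlapping days, a call lost without any 1 WT array, B4KO DD16 or any 1 Isl1KO array, or with no dim filter (-1.57 to -0.69). Among transmembrane collagens, Col17a1, the hemidesmosomal collagen, had levels of -4.64, -5.00 and -4.32 at DD10, -4.18, -3.24 and -3.80 at DD16 and -1.60, -1.54 and -1.46 at DD23, with DD23 above all other arrays and a second step of 2.21 (SE 0.26, adjusted p = 0.00217). Col25a1, made by neurons, fell from -0.37, -0.79 and -0.47 at DD10 to -2.24, -3.05 and -3.23 at DD23 (-2.30, SE 0.20, adjusted p = 0.000265). Col26a1, an EMI-domain collagen, rose in the first step by 0.81, and Col23a1 and Col13a1 were not called between days; with the mean of its probes Col13a1 fell in the first step (-0.82, adjusted p = 0.0359) and over the span (-0.96, adjusted p = 0.0133). The first Col17a1 rise of 0.91 (0.49 to 1.11) was lost without any array other than WT DD16, or with no dim filter or the WT and Isl1KO slide alone. Surface ectoderm markers, 5 of 5 measured but with 1 to 5 above background per array, summed to 5.93 to 6.47 at DD16 and 6.98 to 8.33 at DD23, and their part in the Col17a1 rise was not tested.

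**Figure D4:**
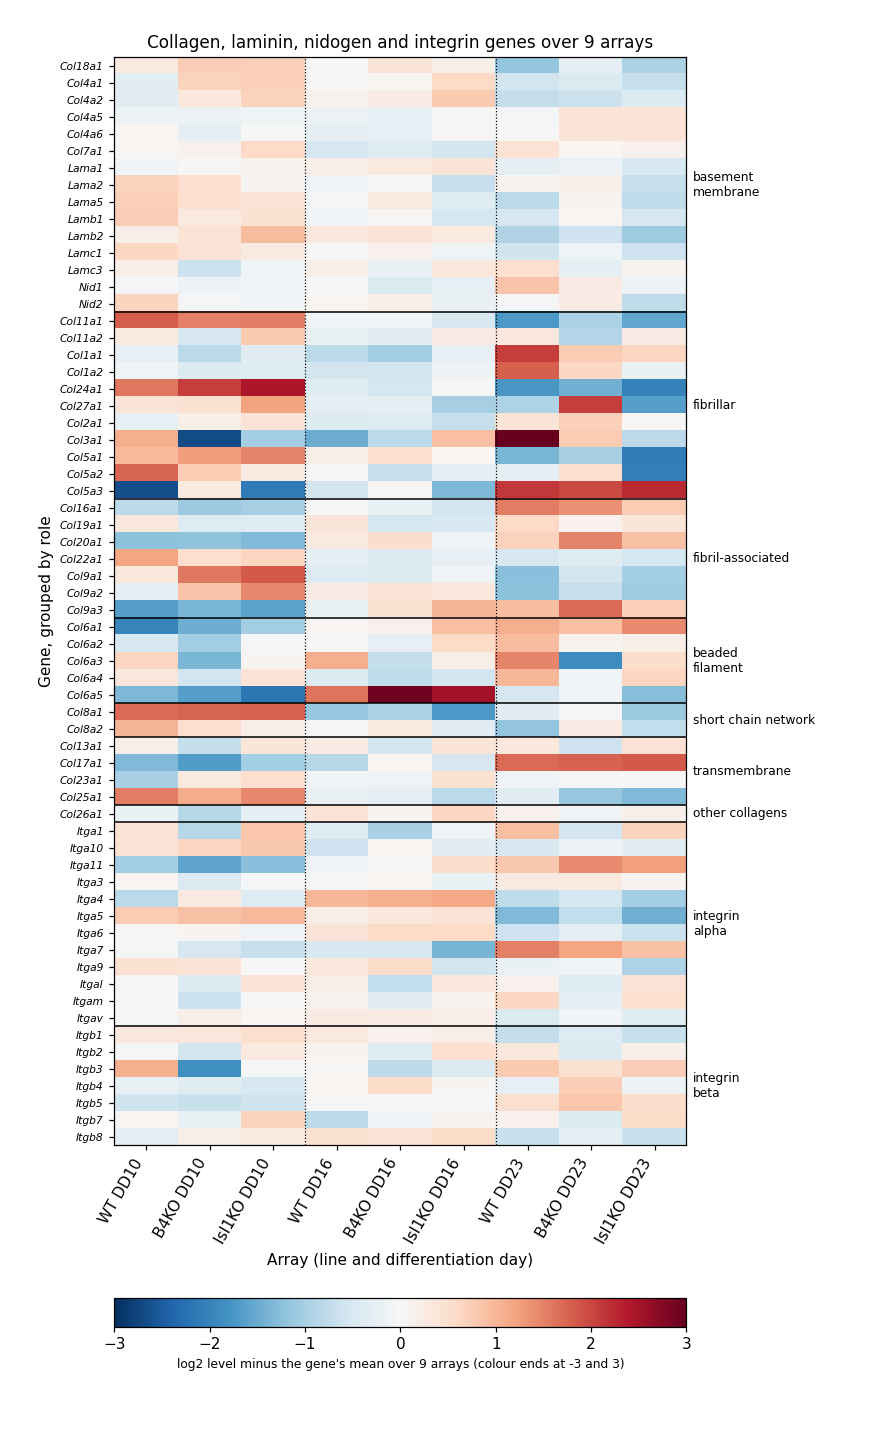
Rows are 64 of the 65 genes by role and columns the 9 arrays ordered by day; colour is the log2 level minus the gene's own mean over 9 arrays, red higher and blue lower, and it ends at -3 and 3. Columns of one day resemble each other for most rows, for example Col8a1 (red at DD10) and Col17a1 (red at DD23), and rows cannot be compared in level.

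Integrin subunits moved both ways, with the common beta subunit Itgb1 down at DD23. Of 19 subunits, 4 rose and 3 fell in the first step, 5 rose and 7 fell in the second, and 4 rose and 7 fell over the span, with a span median of 0.06. In either direction 36.8%, 63.2% and 57.9% passed, beside 40.8%, 41.3% and 60.7% of all genes. Itgb1, the beta subunit common to most matrix receptors, had levels of 3.45, 3.42 and 3.59 at DD10, 3.39, 3.24 and 3.31 at DD16 and 2.39, 2.71 and 2.44 at DD23; DD23 lay below DD16 without overlap, and the second step was -0.80 (SE 0.11, adjusted p = 0.00383), 1.74-fold lower. Itgb8, which with Itgav activates TGF-beta, had levels of -0.55, -0.05 and 0.02 at DD10, 0.19, 0.16 and 0.30 at DD16 and -0.91, -0.55 and -0.91 at DD23 and a second step of -1.01 (SE 0.15, adjusted p = 0.00414). Itgb5, another partner of Itgav, rose at both steps. Its levels were 1.29, 1.22 and 1.3 at DD10, 1.90, 1.93 and 1.84 at DD16 and 2.37, 2.71 and 2.43 at DD23, and all days were apart, with a span of 1.23 (SE 0.10, adjusted p = 0.000200). Itgav had levels of 1.54, 1.74 and 1.63 at DD10, 1.84, 1.79 and 1.77 at DD16 and 1.14, 1.49 and 1.2 at DD23 and a second step of -0.53 (SE 0.09, adjusted p = 0.00738), which was 0.17 on a second detected probe. The mean of the probes of Itgb1 gave no call over the span (-0.98, -1.21 to -0.58 over the alternatives), and Itgb8 lost its span of -0.60 without B4KO DD10 or Isl1KO DD10 or DD23 (-0.83 to -0.47).

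Among laminin receptor subunits Itga6 fell and Itga7 rose at DD23. Itga6, the alpha subunit of both laminin receptors with Itgb1 and Itgb4, had levels of 3.67, 3.77 and 3.56 at DD10, 4.06, 4.26 and 4.28 at DD16 and 3.05, 3.41 and 3.04 at DD23, highest at DD16 without overlap, with steps of 0.54 (SE 0.10, adjusted p = 0.00981) and -1.03 (SE 0.10, adjusted p = 0.00145). The mean of its probes lost the first call (0.17, adjusted p = 0.179), and a second detected probe gave 0.052 for the second step. Itgb4, the hemidesmosomal partner, was not called in either step, and r with Itga6 was 0.305. Itga7, the muscle laminin receptor, had levels of -2.18, -2.62 and -2.82 at DD10, -2.57, -2.59 and -3.50 at DD16 and -0.61, -0.93 and -1.25 at DD23 and a second step of 1.96 (SE 0.14, adjusted p = 0.000800), 3.88-fold higher with no overlap. Itga3 was not called between days (span 0.36, SE 0.15, adjusted p = 0.0729). Of the collagen receptors, Itga11 had levels of -3.71, -4.25 and -3.92 at DD10, -2.77, -2.71 and -2.14 at DD16 and -1.86, -1.25 and -1.43 at DD23 and a span of 2.44 (SE 0.23, adjusted p = 0.000341), and Itga10 fell in the first step (-0.93, SE 0.12, adjusted p = 0.00338), though not by the mean of its detected probes. Itga1 had steps of -0.62 (SE 0.20, adjusted p = 0.0498) and 0.82 (SE 0.20, adjusted p = 0.0204), with overlapping days. The first (-0.87 to -0.38) was lost without WT DD10 or DD16, B4KO DD10 or DD23 or any 1 Isl1KO array, or with no dim filter or the mean of probes. The second (0.55 to 1.04) was lost without WT DD16 or DD23 or Isl1KO DD16. The second step of Itga11, 1.03 (0.76 to 1.21), was lost without WT DD16, B4KO DD16 or Isl1KO DD23, or with the WT and Isl1KO slide alone.

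Of the fibronectin receptor subunits, Itga5 was highest at DD10 and Itga4 at DD16. Itga5, the fibronectin receptor, had levels of -2.45, -2.32 and -2.24 at DD10, -3.0, -2.89 and -2.83 at DD16 and -4.55, -3.95 and -4.66 at DD23; DD23 stood below all other arrays, with a second step of -1.48 (SE 0.16, adjusted p = 0.00198). Itga4, which binds fibronectin and VCAM1, had levels of -0.93, 0.14 and -0.51 at DD10, 0.86, 0.95 and 1.04 at DD16 and -0.89, -0.66 and -1.14 at DD23. DD16 was above both other days without overlap, with steps of 1.39 (SE 0.21, adjusted p = 0.00494) and -1.85 (SE 0.21, adjusted p = 0.00208). Itga9, the tenascin receptor, fell over the span (-0.70, SE 0.13, adjusted p = 0.00485). Leukocyte subunits Itgal, Itgb2 and Itgb7 were not called between days, nor was Itgb3 of platelets and endothelium; Itgam rose by 0.50 over the span with overlapping days. The first Itga5 step of -0.57 (-0.68 to -0.34) was lost without any 1 WT array, B4KO DD10 or DD16 or Isl1KO DD10 or DD16, or with no dim filter or the WT and Isl1KO slide alone. The second Itga9 step of -0.52 (-0.64 to -0.38) was lost without WT DD16 or DD23, B4KO DD16 or DD23 or Isl1KO DD23, or with no dim filter or the WT and Isl1KO slide alone. The second Itgam step of 0.32 (0.19 to 0.47) was lost without any 1 WT array, B4KO DD10 or any 1 Isl1KO array, or with the array median, no dim filter or the deposited table.

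Probes of the same gene were read singly where 2 or more were detected, as an alternative added after the data were seen; that held for 24 genes. Probes were called in opposite directions for Itga6 and Col9a1 in the first step, at coordinates of build mm9. The Itga6 probe at chr2:71694756-71694815, used above, gave 0.54 and the probe at chr2:71690633-71690692 gave -1.27 (SE 0.12, adjusted p = 0.00129), with levels of 1.60, 1.91 and 1.95 at DD10 and 0.60, 0.54 and 0.51 at DD16. The 3 other detected Itga6 probes gave 0.51 to 0.53 in that step. The second Col9a1 probe, at chr1:24201545-24201604, was above background on 3 arrays and gave 1.21, against -1.56 for the one used. Whether the probes read different transcripts was not tested.

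Other genes of the matrix, named in lists chosen with earlier results known, were counted in the same fit. Among structural partners (31 of 34 measured), 3 rose and 12 fell from DD16 to DD23, after 9 rises and 8 falls in the first step; 48.4% and 54.8% passed in either direction, beside 41.3% and 40.8% of all genes. The rises were Tnc, Smoc2 and Vtn: tenascin C was at least 3.84-fold higher at DD23, and the matricellular Smoc2 rose by 2.20. The largest falls were Efemp1, of elastic microfibrils, and Ogn, a small proteoglycan, which fell by 1.67 and 1.67. In the first step Postn, a matricellular protein of mesenchyme, fell by 4.34 and Fras1, of embryonic basement membranes, by 1.66, while Tgfbi rose by 1.96 and Fbln5 by 1.90.

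Collagen processing genes (23 of 28 names measured, older and newer names of a gene both listed) had 6 rises and 6 falls in the first step. In the second they had 0 rises and 9 falls (52.2% and 39.1% passed). Of all genes 40.8% and 41.3% passed. By direction, 21.9% rose and 18.9% fell in the first step, and 19.3% rose and 22% fell in the second. The same shares of all genes apply to the adhesion and protease lists that follow. Serpinh1, the collagen chaperone, fell by 0.70 at DD23 and Crtap, of the prolyl 3-hydroxylase complex, by 0.76; Tll1, a procollagen protease, rose by 2.08 and then fell by 2.14. Pcolce2 and Adamts3, of procollagen cleavage, fell by 2.06 and 1.68 in the first step, and Adamts2 rose by 1.67. Adhesion complex genes (15 of 17) had 1 rise and 3 falls, then 2 rises and 6 falls (26.7% and 53.3%). Vcl and Zyx, the adhesion proteins vinculin and zyxin, fell by 1.19 and 1.0 at DD23, and Tln2 rose by 1.94 and Parvb by 0.81; in the first step Tln1 and Pxn fell by 0.61 and 0.51 and Parvb rose by 0.96. Proteases and inhibitors (15 of 16) had 4 rises and 6 falls, then 2 rises and 3 falls (66.7% and 33.3%): Adamts9 fell at both steps (by 2.24 and 1.31), Mmp16 fell by 1.02 and Mmp11 by 1.02, and Mmp24 rose at both (1.14 and 0.87), with Timp3 up 1.10 and then Mmp17 up 1.35.

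Between lines, most differences in matrix genes set B4KO apart, and those cannot be told apart from its slide. B4KO was lower than WT for 9 of the 65 genes, where 18.1% of all genes were lower, and higher for 1, where 4.05% were. Lower were Col6a3, Itga1, Col13a1, Col6a4, Col19a1, Lamc3, Itgam, Itgal and Itgb2, and higher was Col18a1. Of the fibrillar chains 0 were called in limma and 1 had an unadjusted p under 0.05. With each array's median in place of its 75th percentile the split was 8 higher and 8 lower, where that scaling moved the median of all genes by 0.21; with quantile normalization it was 2 and 5. Without WT DD10, 5 genes in place of 9 were lower.

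Col6a3 was above background on all WT and Isl1KO arrays and on no B4KO array, with levels of -4.19, -3.73 and -3.37 in WT (DD10, DD16, DD23), so it was at least 1.94-fold lower in B4KO (adjusted p = 0.00352). Itga1 levels were -2.30, -3.10 and -1.84 in WT and -3.59, -3.71 and -3.29 in B4KO, without overlap (-1.12, SE 0.20, adjusted p = 0.0107); without B4KO DD23 its call was lost (-1.34 to -0.79). Itgam levels were 4.11, 4.21 and 4.73 in WT, 3.48, 3.78 and 3.84 in B4KO and 4.09, 4.23 and 4.60 in Isl1KO, with B4KO below the rest (-0.65, SE 0.10, adjusted p = 0.00613). The other leukocyte subunits called, Itgal (-0.63) and Itgb2 (-0.55 on the fitted scale), went the same way. Itgb2 was above background on 1 WT array and on no B4KO array, so no fold is given. The Itgal call was lost with quantile normalization (-0.77 to -0.35 over the alternatives). Of the blood markers, Ptprc read 3.21, 3.28 and 3.55 in WT and 1.99, 2.20 and 2.28 in B4KO. The list of 3 of 6 summed to 10.7 to 13 in WT, 4.77 to 5.72 in B4KO and 11 to 13.9 in Isl1KO. That sum is linear and in WT and B4KO mostly Ptprc. All 3 names were lower in B4KO than in WT (-1.20 to -0.22, 2 called). Between Isl1KO and B4KO they differed in direction, with 2 called higher in Isl1KO and 1 called lower (-2.38). Aif1, Spi1 and Tyrobp were not among the genes tested, and the part of blood cells was not tested. Col18a1 was the only rise: 3.07, 2.79 and 1.62 in WT and 3.52, 3.16 and 2.51 in B4KO, with overlap (0.57, SE 0.14, adjusted p = 0.0351). Its call was lost without any 1 WT array, any 1 B4KO array or Isl1KO DD16, or with no dim filter (0.39 to 0.78).

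The lower calls lay among dim probes. Over all genes the B4KO minus WT median was -0.46 for mean levels below -4, where 27.4% were called lower, and 0.12 above 2, where 9.62% were, and 8 of the 9 lower members had a mean level below -2. Col13a1 (-0.87, SE 0.07, adjusted p = 0.000667) rested on a probe with no RefSeq match; a second detected probe, at chr10:61301277-61301336 (mm9), gave 0.02. Col19a1 differed by -0.68 and Lamc3 by -0.68, and Col6a4, above background on no B4KO array and on 1 WT array, has no fold. The Col6a4 call (-0.99 to -0.24 on the fitted scale) was lost without WT DD10 or DD23 or B4KO DD10 or DD23, or with quantile normalization or no dim filter. That of Col19a1 (-0.83 to -0.23) was lost without WT DD10 or B4KO DD16, or with quantile normalization or normexp, and that of Lamc3 (-0.84 to -0.34) without WT DD10 or DD23 or B4KO DD10 or DD23. Itgb2 (-0.64 to -0.18 on the fitted scale) lost its call without WT DD10 or DD23 or any 1 B4KO array, or with quantile normalization, the array median, normexp or no dim filter. The calls of Itgam and Col6a3 held under every alternative other than probes read singly.

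**Figure D5:**
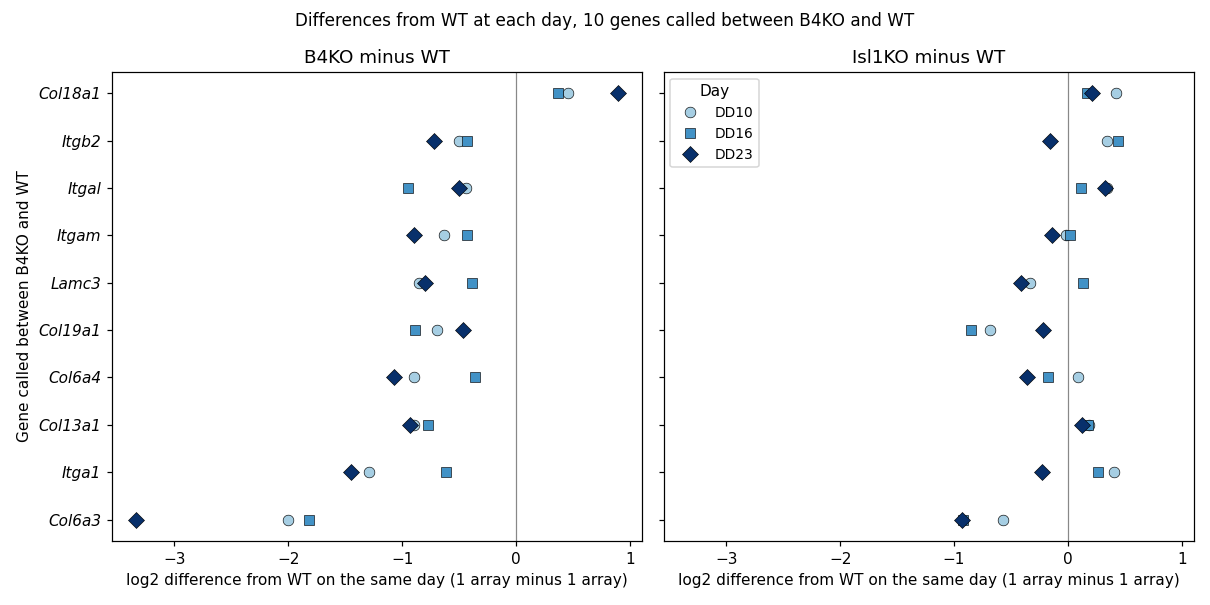
The 10 genes called between B4KO and WT, with the log2 difference from the WT array of the same day on the x axis for B4KO (left) and Isl1KO (right); each symbol is 1 day, 1 array minus 1 array, with no error. All 3 B4KO symbols lie on one side of 0 for each gene, such as Itga1 (-1.45) and Col18a1 (0.89) at DD23; Col6a3, Col6a4 and Itgb2 were above background on no B4KO array and their B4KO symbols are not fold changes, and the Isl1KO symbols of Itgam lie between -0.14 and 0.02.

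Isl1KO differed from WT for none of the 65 genes in limma at an adjusted 0.05 (0.00427% of all genes were called), although 11 of 65, or 16.9%, had an unadjusted p under 0.05, against 8.14% of all genes. Among the 11 were Itga9 (-0.68, SE 0.13, adjusted p = 0.353) and Lama2 (-0.66, SE 0.10, adjusted p = 0.284), both lower, and Col6a1 (0.70, SE 0.15, adjusted p = 0.393) and Col4a2 (0.66, SE 0.15, adjusted p = 0.416), both higher. For Col4a2 the Isl1KO array was above WT on each day (1.0, 1.11 and -0.10 against -0.00, 0.42 and -0.39 at DD10, DD16 and DD23).

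Against B4KO, Isl1KO was lower for Lama2 (-0.65, SE 0.10, adjusted p = 0.00590) and Itga9 (-0.79, SE 0.13, adjusted p = 0.00816) and higher for 11, where 3.86% and 18.1% of all genes were; this comparison shares its B4KO arrays with B4KO against WT. Lama2 levels were -2.59, -3.37 and -3.35 in Isl1KO and -2.17, -2.70 and -2.49 in B4KO, with overlap. The 11 were Itga1 (1.27), Col13a1 (1.03), Col11a2 (0.99), Itgal (0.89), Itgam (0.61), Col6a4, Col6a1, Lamc3, Col26a1, and Col6a3 and Itgb2, these last at least 1.11-fold and at least 1.40-fold. With the array median the split was 7 higher and 8 lower, and without Isl1KO DD10 5 higher and 5 lower. The 11 higher genes became 6 without Isl1KO DD16 or Isl1KO DD23 and 7 without B4KO DD10 or B4KO DD23. Calls of Itga1, Itgal, Itgam, Itgb2, Lama2 and Itga9 held under every alternative other than probes read singly. Col11a2 was lost without B4KO DD10 or DD23 or any 1 Isl1KO array (0.51 to 1.25). Col6a1 (0.57) was lost without WT DD16, B4KO DD16 or DD23 or any 1 Isl1KO array, or with quantile normalization, the array median, no dim filter or the mean of probes (0.43 to 0.70). Col26a1 (0.46) was lost without WT DD16 or DD23, B4KO DD10 or DD16 or any 1 Isl1KO array, or with the array median, no dim filter or the mean of probes (0.31 to 0.56). Lamc3 (0.47) was lost without any array other than WT DD16, or with quantile normalization, the array median, normexp or no dim filter (0.18 to 0.55). Col6a4 was lost without any array other than B4KO DD16, or with quantile normalization, the array median, no dim filter or the mean of probes (0.25 to 0.84 on the fitted scale, no fold given). Col6a3 was lost without Isl1KO DD10 or DD23, or with quantile normalization or normexp (0.26 to 1.89 on the fitted scale) and Col13a1 with the mean of its detected probes.

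Whether a knockout departed from WT at DD23 in particular was tested with a term for each knockout at that day. It called 0 of 23428 genes (0%) for either line in limma; 7 members for B4KO and 6 for Isl1KO had an unadjusted p under 0.05, against 6.04% and 4.93% of all genes. For collagen I the terms were -0.91 (Col1a1) and -1.01 (Col1a2) in B4KO and -1.68 and -2.09 in Isl1KO, with adjusted p of 0.773 to 0.815. These terms rest on the WT DD23 array that stood highest for the same genes. Col27a1 had a term of 2.96 in B4KO (SE 0.78, adjusted p = 0.776), from a gene above background on 3 arrays.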

How the data were processed

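Total RNA of 9 organoid samples was hybridised singly to 1-colour Agilent mouse arrays, with probe coordinates of build mm9 per the file headers. The deposited scanner files, which the submitters' processing notes credit to Agilent Feature Extraction 12.0.3.1, hold each spot's processed intensity, with spatial and multiplicative detrending on and the separate background correction setting off per the file headers, and other columns with flags for spots above background or saturated. The deposited table holds a signal per probe that equals the processed intensity divided by a constant for each array. The sources used here do not name the scaling, but each constant lay close to the array's 75th percentile over all spots. On WT DD10 these were 1003.05 and 1003.04, and on Isl1KO DD23 840.47 and 840.42.

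Control spots were left out, spots of a probe averaged, intensities divided by each array's 75th percentile and taken to log2, and the brightest probe with 3 or more arrays well above background stood for a gene (23428 genes). RefSeq symbols were found for 128 of the 190 member probes, with 0 differing from the array's name. With limma 3.58.1 and the data.table package (1.17.8) under R 4.3.3, line and day were fitted as additive terms (4 residual degrees of freedom), and a second model added a DD23 term per knockout (2 residual degrees of freedom). P-values were adjusted over all genes by Benjamini-Hochberg at 0.05, and the code was tested on simulated data. A bound sets the bright group's mean against, per array of the dim group, the higher of the probe's own signal and the lowest signal among probes well above background. The number of arrays limits the precision. Since each line and day has 1 array, p-values measure departures from additivity only.

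The gene set and the lists were chosen with earlier results of these data known. Named were all measured basement membrane and fibrillar chains, the 6 largest rises and falls per comparison, integrins and line differences past the threshold, and the 2 largest rises and falls per partner list and step; Serpinh1, Vtn and the comparisons with markers of other cells in single genes were named after their values were seen. Alternatives were quantile and median scaling, normexp (offset 50), no filter or a filter on all 9 arrays, the mean of detected probes, the authors' table, RefSeq names, the WT and Isl1KO slide alone, and each array left out. The values of 1 basement membrane chain are not reported here, though it is in the counts.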

Additional observations from a re-analysis of the deposited data

How the results depend on the processing

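RefSeq names changed no call among the 65 genes. The deposited table kept every direction, but it scales the same intensities in nearly the same way, so it is hardly an independent check. Counts of members moved by over 1.5 times as follows. For B4KO against WT, quantile normalization gave 2 higher and 5 lower, the array median 8 higher, no filter on dim probes 0 higher, and the filter on all 9 arrays 2 higher and 5 lower. For Isl1KO against B4KO, quantile normalization gave 7 higher, the array median 7 higher and 8 lower, and the filter on all 9 arrays 6 higher. For Isl1KO against WT, no filter gave 1 higher and 8 lower, and for DD23 against DD10 the WT and Isl1KO slide gave 11 higher. The array median shifted the median of all genes by -0.11 (DD16 against DD10), -0.12 (DD23 against DD16), -0.23 (DD23 against DD10), 0.21 (B4KO against WT) and -0.14 (Isl1KO against B4KO). With 1 array left out, counts ranged over 9 to 12 higher and 8 to 17 lower (DD16 against DD10), 10 to 18 and 14 to 19 (DD23 against DD16), 14 to 19 and 19 to 25 (DD23 against DD10), 0 to 2 and 5 to 11 (B4KO against WT), 0 and 0 (Isl1KO against WT), and 5 to 9 and 2 to 6 (Isl1KO against B4KO). A line and day left out in this way rests on the additive fit of the other arrays. Reversed signs were Col6a4 (0.0082) and Itgal (0.22) in DD16 against DD10 with normexp. With the mean of detected probes they were Col13a1 in DD16 against DD10 (-0.82) and DD23 against DD10 (-0.96), both past the threshold, Lama1 in DD23 against DD10 (0.12), and Itga10 in B4KO against WT (-0.78) and Isl1KO against B4KO (1.06). With probes fitted singly, an alternative chosen after seeing the data, they were Col13a1 (0.022, B4KO against WT, and -1.71, DD16 against DD10), Col9a1 (1.21, DD16 against DD10), Itga10 (-1.96, B4KO against WT, and 2.25, Isl1KO against B4KO), Itga6 (0.052, DD23 against DD16, and -1.27, DD16 against DD10) and Itgav (0.17, DD23 against DD16). The cause was not tested. No paired analysis was possible because the labels carry no replicate numbers that link arrays; line and day are terms of the model, which compares days within lines and lines within days. Genes at the detection limit, such as Col6a5, Col24a1 and Col3a1, have bounds or wide errors.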

Other observations

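Cell-type genes outside the matrix set changed over the same days. Crx, a transcription factor of photoreceptors, had levels of 0.42, 1.43 and 0.85 at DD10, 5.04, 5.07 and 4.97 at DD16 and 6.33, 6.63 and 6.69 at DD23, all days apart, with a first step of 4.13 (SE 0.19, adjusted p = 0.000210) in limma over all genes. Müller glia had 5 of 5 markers measured, and 3 rose from DD16 to DD23, where 19.3% of all genes did. They were Rlbp1, a retinoid-binding protein, by 2.32, Apoe, a lipid carrier, by 1.19 and Slc1a3, a glutamate transporter, by 0.58. The 2 others had negative values (lowest -0.26) and were not called. Rlbp1, which pigment epithelium also makes, had first fallen by 1.83. Of 6 measured pigment epithelium genes 4 fell in the first step, where 18.9% of all genes did. Among the 4 were Mitf, by 2.60, and Pmel, by 2.19. Pmel levels were 5.19, 5.09 and 5.11 at DD10, 3.21, 2.98 and 2.62 at DD16 and 1.73, 1.38 and 0.89 at DD23. Kdr, a VEGF receptor of endothelium that retinal progenitors also make, rose by 1.25 in the first step. Cldn5, a tight junction protein of endothelium, was at least 9.38-fold higher at DD16 than at DD10 (adjusted p = 0.00384 in limma over all genes), and Pecam1 did not pass (0.50). Cdh5, Tek, Emcn and Tie1 of endothelium were not among the genes tested. The summed level of the 3 measured was 2.65 to 4.14 at DD10, 8.07 to 9.36 at DD16 and 10 to 10.7 at DD23.

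Of the 65 matrix genes, 14 were highest on the WT DD23 array and 14 on the Isl1KO DD10 array, against 1 each on the B4KO DD10 and WT DD16 arrays. The share of all genes highest on each array was not counted, so these counts are not set apart from those of other genes. The gap to the next array was largest for Col3a1 (2.96), Col1a1 (1.32) and Col1a2 (1.17), all on WT DD23.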
